A study of Sus scrofa with 35 samples.

Results

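Whole blood of Creole pigs (CR) was compared with whole blood of Large White pigs (LW), both kept under heat stress (HS). The pigs were chosen by their sample titles alone, which gave 6 CR and 6 LW pigs, 12 of the 35 pigs of the series, each measured on 1 array. All were castrated male growing pigs. CR pigs are a local Caribbean breed and LW pigs are raised commercially worldwide. The other pigs of the series were CR and LW pigs in thermoneutral (TN) conditions (5 and 6 pigs) and pigs of the cross between both breeds (F1, 6 in HS and 6 in TN). TN pigs were kept at 24 °C and were slaughtered before the temperature was raised. For HS pigs the sample labels state 30 °C and the protocol text states 32 °C for 5 days, with 4 or 5 days in the methods of the study, so the groups are named HS and TN only. By the design of the study, the pigs of a breed came in blocks of 4 littermates, and each pen held 1 pig of each block. Each climate received some pens of each breed. HS pigs of a breed therefore shared litters with each other and with its TN pigs. The labels name no litter, pen or day of slaughter, and p-values therefore measure the spread between pigs as if they were unrelated.

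Blood is a mixture of red cells and their young forms, platelets and several kinds of white cells, and each kind brings its own messenger RNA. Heat makes a pig eat less and shed heat through the skin and by breathing, and a breed raised in the tropics and one selected for lean growth are known to differ in how they bear it. In whole blood, fewer cells of a type and less RNA per cell cannot be told apart. The array carries probes of 60 bases, and a transcript that differs from its probe in sequence binds less well. Whether a breed difference at a probe reflects the amount of the transcript or its match to the probe cannot be told apart here. Values are log2 of the normalised intensity, so that a difference of 1 is a 2-fold difference.

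The probe sequences of some of the differences described below are given here from the deposited scanner files, as designed, 5′ to 3′. Both probes of the first pair measured TSPAN7, the second under the name of a cDNA clone, and the capitals mark the 57 bases that they share.
TSPAN7: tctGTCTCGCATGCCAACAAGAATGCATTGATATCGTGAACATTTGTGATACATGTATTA
clone AK236698: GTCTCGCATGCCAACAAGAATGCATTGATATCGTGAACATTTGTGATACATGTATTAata
The SELENOF probe with the breed difference is shown because the other probes of the gene did not share it, and its capitals mark 21 bases that also lie in a probe of SELENOF with a difference of 0.00.
SELENOF: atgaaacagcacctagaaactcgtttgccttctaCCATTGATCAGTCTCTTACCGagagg
A pair of SLA-3 probes and a pair of ACTA1 probes are shown because they overlap, by the 42 and 18 bases in capitals, and gave different breed differences.
SLA-3, past the threshold: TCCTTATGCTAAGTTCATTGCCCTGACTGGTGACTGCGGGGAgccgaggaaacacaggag
SLA-3, not past it: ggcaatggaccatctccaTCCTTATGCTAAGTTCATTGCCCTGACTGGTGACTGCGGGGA
ACTA1, past the threshold: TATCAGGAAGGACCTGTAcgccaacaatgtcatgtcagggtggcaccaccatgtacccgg
ACTA1, not past it: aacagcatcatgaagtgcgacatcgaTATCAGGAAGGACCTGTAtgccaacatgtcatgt
The last 3 are probes of a transcript to which the scanner files give no gene name, of an immunoglobulin constant region and of an antizyme. They have no capitals because nothing in them is compared.
OTTSUST00000000496: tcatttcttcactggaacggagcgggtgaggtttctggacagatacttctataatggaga
IgG1b: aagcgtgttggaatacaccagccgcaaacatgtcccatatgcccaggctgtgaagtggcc
OAZ3: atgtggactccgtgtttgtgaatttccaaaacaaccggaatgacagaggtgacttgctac

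Between CR and LW pigs in HS, 153 of 39072 probes differed at an adjusted p of 0.05 by limma, which is 0.392% of the probes tested. CR pigs were higher at 77 of them (0.197%) and lower at 76 (0.195%). The 153 probes held 91 with a gene symbol, of 56 genes, 31 of them higher and 25 lower in CR pigs, and 62 without a symbol. The median size of the difference was 0.92, against 0.14 over all probes, and 65 probes differed at least 2-fold (25 higher and 40 lower in CR pigs). At 101 of the 153 probes (66.0%) the 6 CR and the 6 LW pigs did not overlap, which held for 0.911% of all probes. The probes are not 153 separate observations, since those that share at least 18 bases, a gene or an accession fall into 107 groups. The count moved with single pigs. Left out in turn, CR pigs 1, 2, 3, 4, 5 and 6 gave 112, 57, 76, 95, 236 and 93 probes. LW pigs 1, 2, 3, 4, 5 and 6 gave 81, 51, 81, 91, 120 and 79. In each of these fits all 153 differences kept their sign, and 38 of the probes, of 19 genes among those with a symbol, passed the threshold whichever of the 12 pigs was left out.

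The arrays of both breeds overlapped in brightness. Their 75th percentile intensity was 145 to 289 in CR and 162 to 246 in LW pigs (exact permutation test, adjusted p = 0.489), and 59.2 to 67.3% and 60.0 to 65.0% of the spots were well above background (exact permutation test, adjusted p = 0.489). The 12 arrays lay on 5 slides, 4 of which held both breeds. On all 4 of these slides the breed difference had the same sign at 151 of the 153 probes (98.7%), against 22% over the whole table. The 153 probes were chosen by their difference on these same arrays, so this agreement was largely fixed in advance and tests no slide effect. With slide as a block, 12 of 36 probes described in detail missed the threshold, with adjusted p of 0.0518 to 0.114 by limma and the same sign. They were those of LOC100519082, CYCS, USF1, APP, PLAU, SLC46A2, CTSB, ALDH5A1, PRKRIR, LOC100524282, clone AK235099 and A_72_P010271.

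Among proteins of the cell surface and its signalling, the tetraspanin TSPAN7 was higher and the receptor KIT and the signal regulator RGS2 were lower in CR pigs. TSPAN7 spans the membrane and groups other membrane proteins. Its probe gave 7.28, 7.86 and 8.04 as the lowest, median and highest value of the CR pigs and 5.43, 5.62 and 5.95 in the LW pigs. The lowest CR pig was above the highest LW pig. The difference was 2.14 ± 0.19 (SE), 4.42-fold, with an adjusted p of 1.46e-08. The clone probe that shares 57 bases with it differed by 1.91 (adjusted p = 8.59e-09), while another probe under the symbol TSPAN7 differed by 0.08 and did not pass the test.

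KIT is the receptor for stem cell factor, known from blood progenitors, mast cells and pigment cells. Its probe gave 6.84, 7.17 and 7.67 in CR pigs and 8.05, 8.41 and 8.58 in LW pigs, again without overlap. The difference was -1.15 ± 0.16 (2.21-fold lower in CR pigs, adjusted p = 0.000212). All 5 KIT probes were lower in CR pigs and 3 of them passed the threshold, of which a pair share all 60 bases. RGS2 shortens the signal of receptors coupled to G proteins. All 4 of its probes passed the threshold and separated the breeds, with differences of -1.16 to -0.92. At the first of them the CR pigs lay between 10.57 and 11.16 with a median of 10.81 and the LW pigs between 11.60 and 12.75 with a median of 11.93. WWP1, a ubiquitin ligase, differed by -0.83 (adjusted p = 0.0398), and INPP4A, a phosphatase of membrane inositol lipids, by -0.67 and -0.54 at 2 probes. LOC100520559, annotated as similar to the receptor notch 2, was higher in CR pigs (7.71, 8.36 and 8.59, against 6.50, 6.93 and 7.10), by 1.34 ± 0.26 (adjusted p = 0.0145).

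**Figure D1:**
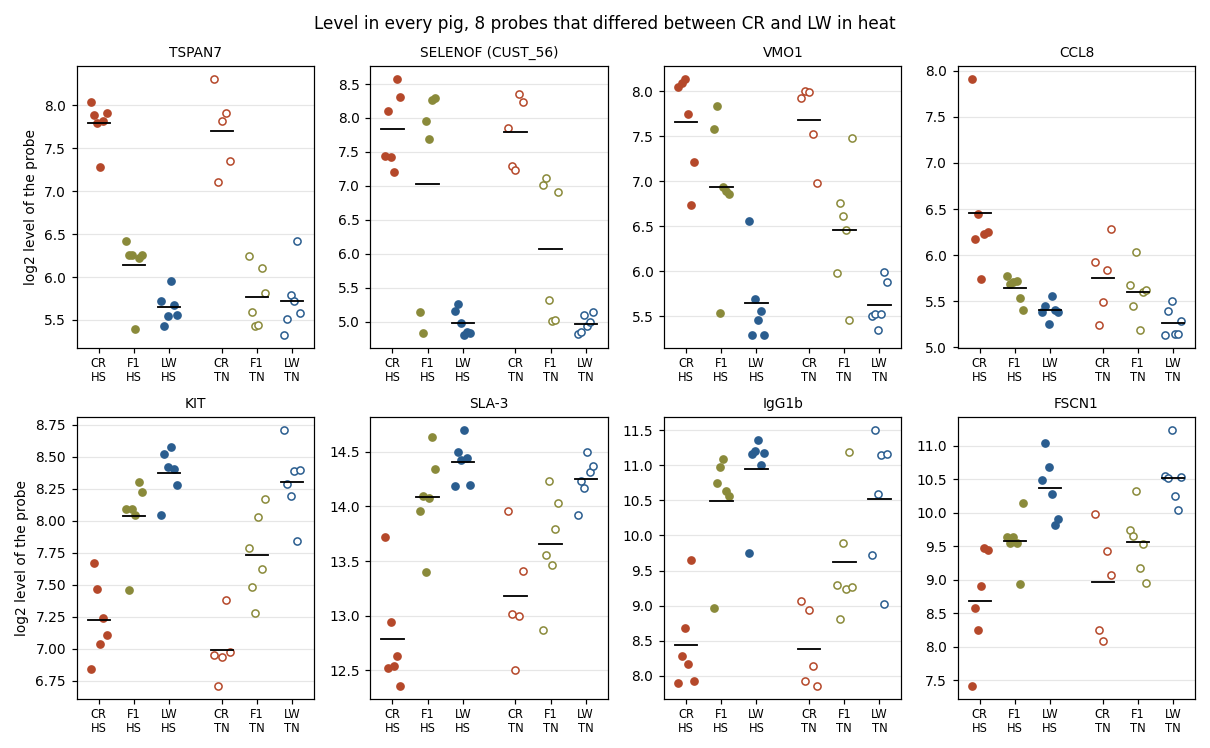
Log2 intensity (vertical axis) of 8 probes in each pig of the 6 groups of breed and climate, with HS pigs as filled and TN pigs as open points and the group mean as a line. At TSPAN7, KIT and SLA-3 the 6 CR HS pigs did not overlap the 6 LW HS pigs, and the F1 HS mean lay between both breeds.

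Among single genes of immune function, the immunoglobulin constant region IgG1b and the class I antigen gene SLA-3 were lower and the chemokine CCL8 was higher in CR pigs. The IgG1b probe measures the heavy chain of an IgG subclass, the antibody made by plasma cells. It gave 7.90, 8.23 and 9.64 in CR pigs and 9.75, 11.16 and 11.36 in LW pigs. The groups came close but did not overlap, and the difference was -2.50 ± 0.41 (5.67-fold lower, adjusted p = 0.00199). The plasma cell and immunoglobulin list did not hold IgG1b, which its gene symbols did not match. The 5 genes of this list, none past the threshold, lay on the other side, all above 0 with a median of 0.26.

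SLA-3 encodes a class I molecule that presents peptides to cytotoxic T cells, and the pig carries near-identical class I genes in many alleles, so the gene behind the signal is uncertain. CR pigs lay between 12.36 and 13.72 (median 12.58) and LW pigs between 14.18 and 14.70 (median 14.44). The difference was -1.62 ± 0.23 (3.08-fold lower, adjusted p = 0.000212). The overlapping probe printed above differed by -0.75 (adjusted p = 0.226) and a further probe by -1.27 (adjusted p = 0.0513). Of 85 probes of 24 genes for class I and antigen processing, this 1 passed the threshold.

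CCL8 attracts monocytes and other white cells. The CR pigs gave 5.74, 6.24 and 7.91 and the LW pigs 5.26, 5.39 and 5.56, a narrow gap near the background, with 4 of the 6 LW arrays well above it. The difference was 1.05 ± 0.21 (adjusted p = 0.0169), the second CCL8 probe missed the threshold with 0.90 (adjusted p = 0.0932), and without the highest CR pig the difference was 0.76. CHIT1, a chitinase of macrophages, was lower in CR pigs, at 5.26, 5.61 and 5.78 against 6.43, 7.06 and 7.87 (a difference of -1.54 ± 0.33, adjusted p = 0.0249). LEF1, a transcription factor of T cells, differed by -0.63 (adjusted p = 0.044) at 1 of its 4 probes, which reached up to 0.08. The mean over all LEF1 probes was -0.24 (adjusted p = 0.738 by limma), and the probe lost the threshold without 11 of the 12 pigs. Higher in CR pigs were BLNK, an adapter of the B cell receptor, by 0.70 (adjusted p = 0.0398), PECAM1, an adhesion molecule of platelets, white cells and vessels, by 0.58 (adjusted p = 0.0294), and a transcript similar to leukocyte immunoglobulin-like receptors, PIGE-108A11.3, by 0.56 (adjusted p = 0.0499).

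Of single genes for proteases and the proteins they cut, taken from those past the threshold, APP, PLAU, CTSB and LAP3 were higher in CR pigs at more than 1 probe each. The paired probes of CTSB share all 60 bases, those of LAP3 52 and those of PLAU 50, so each pair largely repeats 1 measurement. The gene lists nearest to them had 0 of 133 probes (proteasome) and 3 of 150 probes (lysosome) past the threshold. The amyloid precursor APP, a membrane protein cut by secretases and abundant in platelets, passed the threshold at 11 of its 14 probes, by 0.75 to 1.05. Its most different probe gave 9.12, 9.74 and 10.19 in CR pigs and 8.40, 8.54 and 9.27 in LW pigs (1.05 ± 0.22, adjusted p = 0.0255). These groups overlapped, as they did at 6 of the 11 probes, while 5 of the 11 separated the breeds. The related APLP2 went the other way, by -0.73 and -0.63 at 2 probes. PLAU, the urokinase that activates plasminogen, gave 7.11, 7.43 and 7.76 against 6.19, 6.56 and 6.79, a difference of 0.89 ± 0.19 (adjusted p = 0.0233), with a second probe at 0.88. CTSB, a cysteine protease of the lysosome, gave 9.26, 9.48 and 9.66 against 8.26, 8.73 and 9.11, a difference of 0.78 ± 0.17 (adjusted p = 0.0316), with a second probe at 0.75 and its other 5 probes between -0.32 and 0.29. Neither gene overlapped between the breeds. LAP3, an aminopeptidase, was higher by 0.74 and 0.71 at 2 probes. At the single LAMP2 probe past the threshold, for a protein of the lysosomal membrane, CR pigs were lower (7.60, 7.89 and 8.52 against 8.62, 8.93 and 9.24), by -0.94 ± 0.19 (adjusted p = 0.0187), while its other 6 probes lay between 0.17 and 0.59 and the mean over all LAMP2 probes was 0.13.

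Of single enzymes and redox proteins past the threshold, SELENOF, PTGR1, CYCS and PRDX1 were higher and ESD, CMBL, PNPLA4, ALDH5A1 and OAZ3 lower in CR pigs. Among the lists, 1 of 128 antioxidant and 1 of 112 detoxification probes passed. SELENOF is a selenoprotein of the endoplasmic reticulum that takes part in the folding of secreted proteins. Its probe printed above gave 7.20, 7.78 and 8.57 in CR pigs and 4.80, 4.92 and 5.25 in LW pigs, whose 6 arrays were not well above background there. The difference, 2.86 ± 0.47 (adjusted p = 0.0017), corresponds to at least 6.47-fold. This bound sets the CR mean against the lowest signal well above background on each LW array. The other 5 SELENOF probes differed by -0.02 to 0.19.

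PTGR1, a reductase that inactivates leukotrienes and prostaglandins, gave 8.53, 9.21 and 9.49 against 5.59, 7.18 and 8.17, a difference of 2.04 ± 0.44 (adjusted p = 0.0275), with its other 3 probes between 0.31 and 0.35. CYCS, the electron carrier cytochrome c, has near-identical copies in the genome. One of its 13 probes gave 8.11, 8.32 and 8.85 against 5.00, 6.28 and 7.76 (2.09 ± 0.50, adjusted p = 0.0476), with 3 of the 6 LW arrays well above background, and the other 12 lay between -0.22 and 0.62. The peroxide-reducing PRDX1 passed the threshold with a smaller difference (11.74, 12.13 and 12.43 against 11.29, 11.52 and 11.79), 0.54 ± 0.13 (adjusted p = 0.048), and its other probe gave 0.57 (adjusted p = 0.0526).

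ESD, an esterase that completes the glutathione-dependent removal of formaldehyde, was lower in CR pigs at all 11 of its probes, by -1.40 to -1.08, and 9 of them passed the threshold. At its most different probe CR pigs lay between 9.61 and 11.16 (median 10.06) and LW pigs between 10.75 and 12.14 (median 11.88). The breeds overlapped at each of the 9 probes. The hydrolase CMBL was lower by -0.83 and -0.80 at 2 probes, and PNPLA4, a lipase of the patatin family, by -1.05. ALDH5A1, which removes succinic semialdehyde in the breakdown of GABA, gave 5.36, 5.60 and 6.01 against 5.93, 6.74 and 7.07 (-0.94 ± 0.22, adjusted p = 0.0396), and its sign turned on 1 of the 4 slides (0.078). OAZ3, an antizyme that holds back ornithine decarboxylase and polyamine uptake, gave 5.29, 5.58 and 5.99 against 5.79, 8.19 and 8.49, a difference of -2.24 ± 0.42 (4.74-fold lower, adjusted p = 0.00956). A single LW pig lay among the CR pigs at OAZ3.

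Among genes of the cytoskeleton and of muscle-type proteins, FSCN1 and MYBPH were lower and MYL6B was higher in CR pigs. FSCN1, which bundles actin filaments, gave 7.42, 8.74 and 9.47 in CR and 9.81, 10.38 and 11.04 in LW pigs, a difference of -1.69 ± 0.31 (3.22-fold lower, adjusted p = 0.0093), with its other 2 probes at -0.24 and 0.02. MYBPH, a protein related to myosin-binding protein C, gave 5.85, 6.20 and 6.85 against 7.24, 7.72 and 8.35 (-1.51 ± 0.30, adjusted p = 0.0156), and a second probe passed the threshold with -1.20. Neither gene overlapped between the breeds. MYL6B, a myosin light chain, was higher in CR pigs, at 8.38, 8.76 and 9.18 against 6.85, 7.14 and 7.83, by 1.56 ± 0.31 (2.95-fold, adjusted p = 0.016). At ACTA1, the actin of skeletal muscle, the probe past the threshold gave 7.35, 7.63 and 9.77 against 9.19, 9.60 and 9.91 (-1.58 ± 0.35, adjusted p = 0.0316). Its other 12 probes lay between -0.17 and 0.47 and the mean over all its probes was 0.039, and actins are near-identical to each other in sequence. TUBA1B, a tubulin with close copies, passed at 1 of 14 probes (0.76), and the actin-branching subunit ARPC1B was higher by 0.57.

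The transcription factor USF1, which binds E-boxes, was higher in CR pigs at 4 of its 5 probes past the threshold, by 0.75 to 1.14, and all 4 separated the breeds (8.56, 8.97 and 9.50 against 7.51, 7.76 and 8.28 at the first). DCPS, which clears the caps left by mRNA decay, gave 6.45, 7.005 and 7.78 against 7.94, 8.55 and 8.79 (-1.36 ± 0.29, adjusted p = 0.0244), with its other probe at 0.29. VMO1, a homologue of an egg membrane protein, gave 6.73, 7.90 and 8.13 against 5.29, 5.51 and 6.56, a difference of 2.02 ± 0.31 (4.05-fold, adjusted p = 0.0011), without overlap. The remaining genes past the threshold follow by size. Higher in CR pigs were LZTFL1 (0.88), SLC46A2 (0.88), WDR3 (0.88), LOC100526197 (0.84), Acot1 (0.80), CDCA7 (0.75), RGP1 (0.61), PPP3R1 (0.59), GNB5 (0.44), LRP8 (0.42) and ERG (0.37). Lower were PRKRIR (-1.19), CLCA1 (-0.71), PPP1R9B (-0.55) and NEK1 (-0.54). CLCA1 was not well above background on any CR array, and its difference corresponds to at least 1.47-fold. GNB5 and ERG were not well above background on any LW array.

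Probes of the same gene did not always share the breed difference. Of the 56 genes, 15 had 1 probe on the array. Among the other 41, all probes had the same direction in 23 and both directions occurred in 18. Of 28 genes with at least 3 probes, 8 passed the threshold at more than 50% of them, namely APP, ESD, KIT, MYBPH, OAZ3, PLAU, RGS2 and USF1, and 17 passed at 1 probe. When all probes of a gene were averaged first, 32 of 11012 genes passed the threshold (0.291%), 17 higher and 15 lower in CR pigs. Several genes owe their count partly to probes that share sequence, as 4 pairs of APP probes shared 27 to 45 bases and 7 pairs of ESD probes 25 to 46. A pair of probes shared all 60 bases in each of CTSB, CLCA1, KIT, OAZ3, RGS2 and USF1. The pairs of LAP3, PLAU, MYBPH and CMBL shared 52, 50, 45 and 34.

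**Figure D2:**
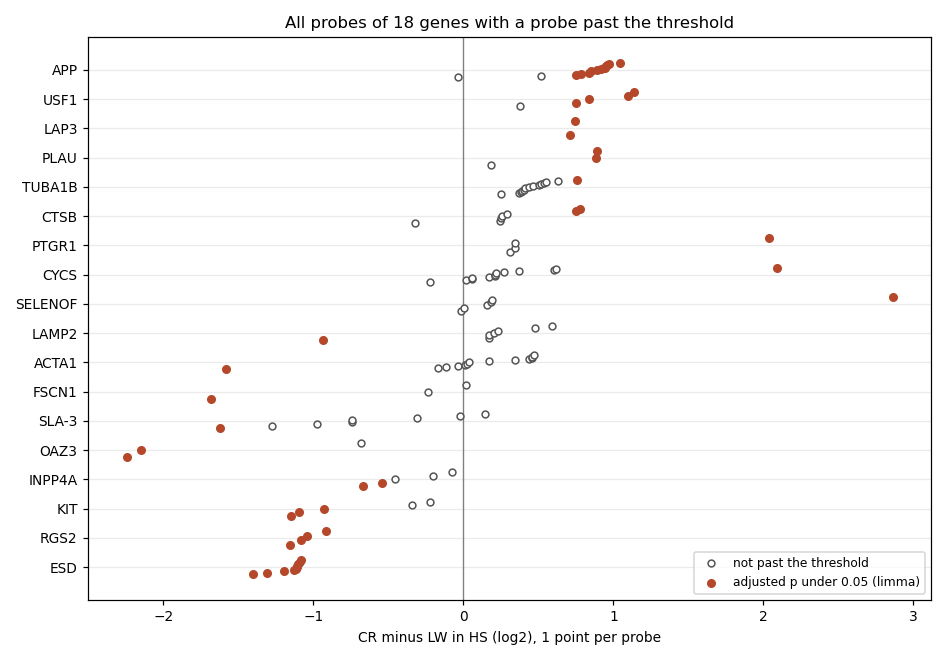
Difference between CR HS and LW HS means (log2, horizontal axis) for every probe of 18 genes, with probes past the threshold marked. All ESD and RGS2 probes lay below 0, while SELENOF, LAMP2 and ACTA1 had 1 probe apart from the others.

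At some probes the values of single pigs were far apart, and the high set is counted here as the pigs above the widest gap between neighbouring pigs of all groups. The probe of clone AK230483, a transcript first read from alveolar macrophages, had the largest difference. CR pigs gave 5.30, 11.49 and 11.93 and LW pigs 4.78, 5.04 and 5.22, none of the 6 LW arrays being well above background. In the high set, above a gap from 5.33 to 10.91, were 5 of 6 CR HS, 1 of 6 F1 HS, 0 of 6 LW HS, 4 of 5 CR TN, 1 of 6 F1 TN and 0 of 6 LW TN pigs. The difference was 5.42 ± 1.14 (adjusted p = 0.0249), at least 38.8-fold, and another probe of the clone gave 2.33 (adjusted p = 0.0255).

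LOC100519082, an uncharacterised protein, gave 14.16, 14.74 and 15.47 in CR pigs and 8.70, 9.15 and 14.70 in LW pigs. One LW pig had a level within the range of the CR pigs, and the difference was 4.66 ± 1.03 (25.3-fold, adjusted p = 0.0316). All 6 CR HS, 3 of 6 F1 HS and 1 of 6 LW HS pigs were in the high set, above a gap from 10.29 to 13.68. LOC100524282, annotated as similar to ribosomal protein L37a, has near-identical copies, so the gene behind its signal is uncertain. It was lower in CR pigs (5.17, 7.57 and 10.30 against 9.79, 10.77 and 11.29), by -3.12 ± 0.71 (8.67-fold, adjusted p = 0.0377). Its low set, below a gap from 6.02 to 8.41, held 3 of the 6 CR HS pigs and no LW or F1 HS pig. SELENOF had 6 of 6 CR HS, 4 of 6 F1 HS and 0 of 6 LW HS pigs above a gap from 5.32 to 6.91. At OAZ3 the F1 pigs were spread between the breeds, and the widest gap, from 6.40 to 6.92, set no clear groups apart. LOC100335347 was lower in CR pigs (5.35, 5.62 and 7.57 against 7.70, 8.04 and 8.72), by -2.23 ± 0.36 (4.69-fold, adjusted p = 0.00151), with 1 of 6 CR HS pigs above a gap from 5.80 to 6.81.

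Further probes without a gene name ranked with these. OTTSUST00000000496 gave 7.30, 8.74 and 10.06 in CR pigs and 4.90, 5.19 and 5.93 in LW pigs, a difference of 3.51 ± 0.66 (adjusted p = 0.00956), with only 2 of the 6 LW arrays well above background. OTTSUST00000001101 gave 8.46, 8.93 and 11.18 against 11.45, 11.71 and 12.33 (-2.44 ± 0.39, adjusted p = 0.00164). Neither overlapped between the breeds. The probe of clone AK237324 differed by 2.66 ± 0.61 (adjusted p = 0.0377), that of clone AK235099 by -1.54 ± 0.32 (adjusted p = 0.0234) and A_72_P010271 by -2.15 ± 0.51 (adjusted p = 0.0456).

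**Figure D3:**
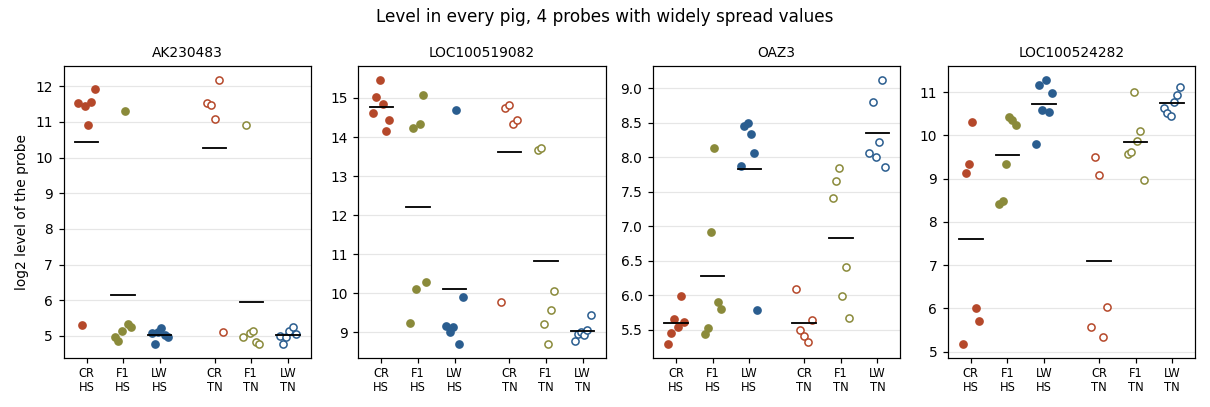
Log2 intensity (vertical axis) of 4 probes in each pig of the 6 groups, with HS pigs as filled and TN pigs as open points and the group mean as a line. At clone AK230483, 5 of 6 CR HS pigs lay far above all 6 LW HS pigs, and at LOC100519082 and OAZ3 1 LW HS pig lay with the CR pigs.

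Lists of genes for blood cell types and for functions in the response to heat were described by their counts and by the median difference of their genes, beside all 11012 named genes, whose median was -0.01 and whose probes passed the threshold in 0.421% of cases. No probe passed among the heat shock proteins HSP70 and HSP110 (11 genes, median 0.06), HSP90 (13 genes, 0.00), HSP40 (31 genes, 0.00), the chaperonins (9 genes, 0.07) or the heat shock factors with small heat shock proteins and BAG proteins (11 genes, -0.13). None passed among cytosolic ribosomal proteins (82 genes), glycolysis (19 genes, median 0.20, 16 genes above 0) or interferon-stimulated genes (39 genes, median 0.17, 27 above 0). The smallest adjusted p by limma in the last pair of lists was 0.0839 and 0.0653. The former was a probe of PGK1, the kinase that makes the first ATP of glycolysis, whose 7 probes differed by 0.48 to 0.62. Antioxidant enzymes had PRDX1 past the threshold (29 genes, median -0.01), detoxification enzymes ALDH5A1 (51 genes, 0.00) and oxidative phosphorylation CYCS (78 genes, -0.04). The lysosome list held CTSB and LAMP2, in opposite directions, with 40 of 57 genes above 0 and a median of 0.14. Cytokines, chemokines and their receptors had CCL8 (98 genes), polyamine genes both OAZ3 probes (13 genes) and solute carriers SLC46A2 (203 genes).

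Only probes with a gene symbol could enter a list, so the 62 probes past the threshold without one, such as OTTSUST00000000496, were in none. Whether any of them belongs by its sequence to a listed function, such as class II presentation, was not tested. Other lists had no probe past the threshold. Of these, genes of class II presentation had a median of 0.17 with 10 of 11 genes above 0, and those of cell cycle and DNA replication a median of 0.18 with 28 of 35 above 0. The medians were 0.11 for complement (21 genes), 0.06 for pattern recognition (23 genes), 0.04 for glucocorticoid and clock genes (19 genes), 0.04 for cholesterol synthesis and uptake (20 genes), 0.04 for apoptosis and autophagy (45 genes), -0.02 for the proteasome (46 genes), 0.00 for mitochondrial ribosomal proteins (64 genes) and -0.08 for glutathione S-transferases (10 genes).

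No listed marker of a cell type passed the test, except for LEF1 in the T cell list, at 1 of its 4 probes. Probes past the threshold without a symbol were in no list, and neither was IgG1b. A probe named PIGRTCRD23, by its name a T cell receptor delta sequence, gave 5.56 to 6.48 in CR and 6.61 to 7.92 in LW pigs in HS. Another probe with the same 60 bases differed by -0.94 (adjusted p = 0.00823 by limma). The median difference was -0.28 for 20 erythroid genes, 17 of them below 0, and 0.52 for 10 platelet genes, 9 of them above 0. CA1, the carbonic anhydrase of red cells, differed by -1.95 to -1.68 at 5 probes, with a smallest adjusted p of 0.134 by limma. It was 0.33 for neutrophils (16 genes), 0.24 for eosinophils and basophils (5 genes), 0.26 for monocytes (13 genes), 0.18 for B cells (10 genes), 0.26 for plasma cells and immunoglobulins (5 genes, all above 0), -0.11 for cytotoxic cells (19 genes), -0.18 for T cells (15 genes) and -0.43 for gamma delta T cells (3 genes). The mean level of each list overlapped between CR and LW pigs, such as 9.31 to 10.86 against 9.71 to 10.64 for the erythroid list and 7.77 to 10.45 against 7.22 to 9.21 for the platelet list, and no marker was below background on all arrays. The part of these list differences in the breed differences of single genes was not tested. In a fit with the erythroid level of each pig as a covariate, 343 probes passed the threshold, among them all 153. That fit adjusts for the erythroid level alone, so it cannot decide the part of platelets or white cells.

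**Figure D4:**
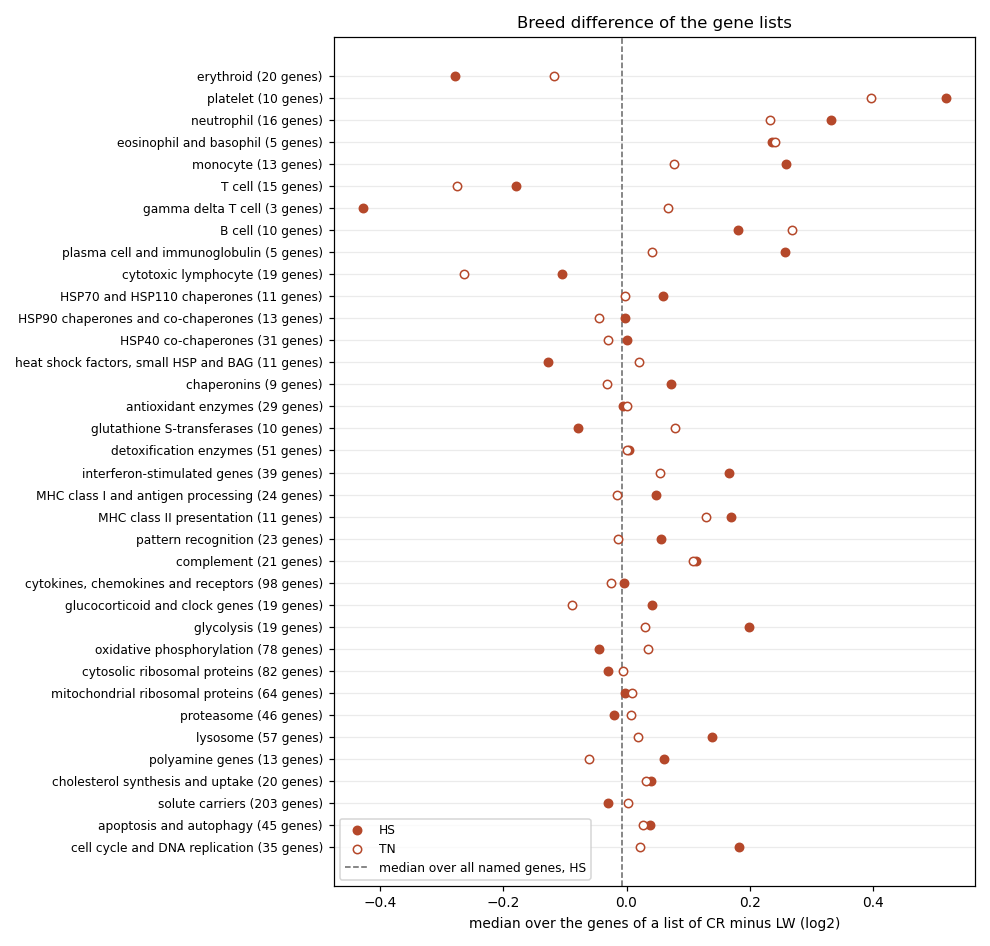
Median difference between CR and LW pigs (log2, horizontal axis) over the genes of each list, in HS and in TN, with a dashed line at the median of all named genes in HS. In HS the platelet list lay highest among the cell type lists, at 0.52, and the erythroid list at -0.28.

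The breed difference was also measured in TN, in pigs that share no array with the HS comparison. By design these pigs were littermates of the HS pigs, so TN is not an independent repeat. In TN 33 probes passed the threshold (0.0845%), 12 higher and 21 lower in CR pigs. Their sign in HS was kept in TN by 152 of the 153 probes (99.3%), against 57.4% of all probes. An unadjusted p under 0.05 was reached in TN by 95 of them (62.1%), against 3.72% of all probes. In both climates 27 probes passed the threshold, which is 81.8% of the TN probes and 17.6% of the HS probes, and they belonged to the genes SELENOF, TSPAN7, VMO1, WWP1, KIT, RGS2, ESD, FSCN1, OAZ3, LOC100335347, IgG1b and LOC100524282, with further probes without a symbol. TSPAN7 differed by 1.98 in TN (adjusted p = 3.23e-07), SELENOF by 2.82 (adjusted p = 0.00477), VMO1 by 2.06 (adjusted p = 0.00193), KIT by -1.31 (adjusted p = 4.04e-05) and OAZ3 by -2.75 (adjusted p = 0.00193). In TN the CR and LW pigs did not overlap at 39 of the 153 probes, against 0.553% of all probes.

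The differences were mostly smaller in TN, with a median size of 0.51 over the 153 probes and a median ratio of TN to HS of 0.624. Probes chosen for their HS difference tend to show a larger value in HS than elsewhere, so this ratio is a description. At 20 probes the TN difference was under 0.25 of that in HS, and at 23 it was larger. LEF1 was -0.63 in HS and -0.03 in TN, CTSB 0.78 and 0.20, MYL6B 1.56 and 0.57, LAMP2 -0.94 and -0.21, ALDH5A1 -0.94 and -0.12 and PTGR1 2.04 and 0.81. The 11 APP probes lay between 0.13 and 0.42 in TN. OTTSUST00000000496 differed by 3.51 in HS and by 0.81 in TN. When the difference between HS and TN was tested itself by limma, 0 probes passed the threshold (0% of those tested) and 700 had an unadjusted p under 0.05 (1.79%). Among the 153 probes 40 had one, including 7 probes of APP, both of LAP3, LEF1, LAMP2, CTSB, MYL6B, PECAM1 and OTTSUST00000000496. The choice of the 153 probes by their HS difference raises this count by itself, so it is a description only. A breed difference in HS other than that in TN was therefore not shown for any gene.

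**Figure D5:**
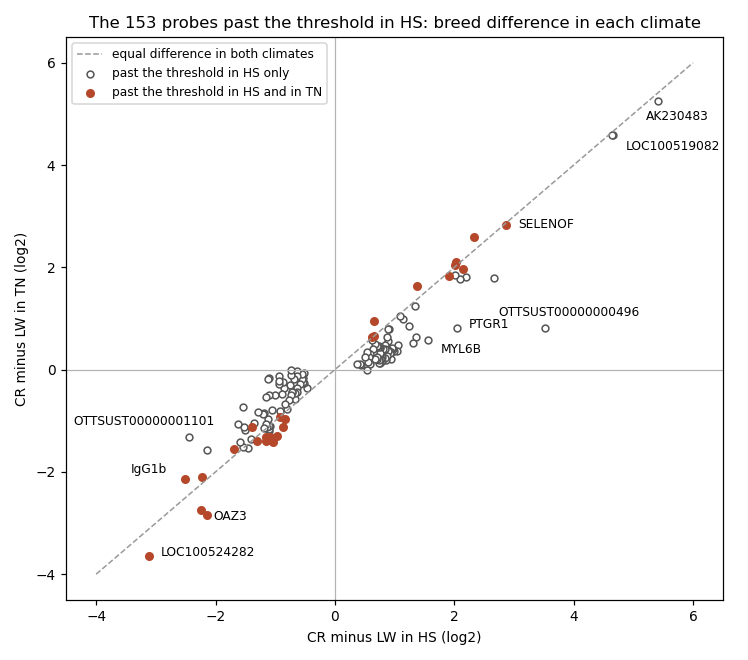
Difference between CR and LW pigs in HS (horizontal axis) and in TN (vertical axis), both log2, for the 153 probes past the threshold in HS. Of these, 152 had the same sign in both climates and 27 passed the threshold in both.

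The F1 pigs in HS give a further level for each gene, set here on a scale from 0 at the LW mean to 1 at the CR mean. These means are those of the same arrays as the breed difference, so the position is given without a test. The F1 mean lay between the breeds at 146 of the 153 probes (95.4%), nearer to LW at 84 and nearer to CR at 69, with a median position of 0.454. At the other 7 it lay beyond LW. TSPAN7 was at 0.23, KIT at 0.29, SLA-3 at 0.20, IgG1b at 0.18 and CHIT1 at 0.08, all near LW, and the 9 ESD probes at 0.22 to 0.33. Nearer to CR were CTSB at 0.82, VMO1 at 0.64, PRDX1 at 0.78, OAZ3 at 0.69 and the 11 APP probes at 0.62 to 0.72. MYBPH and CMBL had the F1 mean at or just beyond that of LW, at -0.01 and at -0.05 to -0.02.

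Of the 56 genes, 50 were placed in the order of protein-coding genes of RefSeq Sscrofa11.1. They lay on 18 chromosomes, and 5 pairs had at most 20 such genes between them. How many such pairs 50 genes drawn at random would give was not tested, so the pairs are a description only. MYBPH and CHIT1, with 1 gene between them, were both lower in CR pigs, as were DCPS and APLP2 with 13 between them. PTGR1 and SLC46A2, with 10 between them, were both higher. SELENOF and CLCA1 (5 between) and CTSB and NEK1 (19 between) had opposite directions.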

How the data were processed

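Messenger RNA of whole blood was hybridised to 1-colour Agilent arrays, 1 per pig, which limits precision to the number of pigs. Per the file headers, the deposited spot intensity values and the 0 or 1 flags came from Feature Extraction 10.10.1.1. The deposited log2 values of 39072 probes had been filtered and quantile normalised by the authors, who used limma. Here they were fitted with limma 3.58.1 in R 4.3.3 (lmFit and eBayes, group means over all 35 arrays, two-sided, Benjamini-Hochberg over all probes, threshold 0.05). The study's model held pen, slaughter day, sire and dam, which the labels do not give. Probes were named from the scanner files and RefSeq. Detection came from the flag for spots well above background. Described were the 12 genes with the largest difference in each direction, the 3 largest unnamed probes in each direction and up to 3 genes of each list, with all other genes past the threshold given more briefly. Members and lists were chosen with earlier results of these data known. The fit was tested on simulated data. Alternatives covered scaling, filters, array weights, slide, model and single pigs.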

Additional observations from a re-analysis of the deposited data

Results flagged for a closer look

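In 72 groups of CR HS or LW HS pigs at the named probes, the highest or lowest pig was set against the others of its group. A pig stood apart in 11 of them, and chance alone flags about 1 in 20 such groups. In CR pigs, the lowest value stood apart at clone AK230483 (5.30, with the next pig at 10.91), at clone AK237324 (5.84, next 9.40) and at TSPAN7 (7.28, next 7.79). The highest CR value stood apart at CCL8 (7.91, next 6.44), ACTA1 (9.77, next 7.91) and LOC100335347 (7.57, next 5.63), the last pair in the same pig, CR pig 6. In LW pigs, the highest value stood apart at LOC100519082 (14.70, next 9.90) and MYL6B (7.83, next 7.21), both in LW pig 4, and at VMO1 (6.56, next 5.69). The lowest LW value stood apart at OAZ3 (5.79, next 7.88) and at IgG1b (9.75, next 11.01). CR pig 1 was the pig apart at both clone AK237324 and CCL8, and LW pig 1 at both VMO1 and IgG1b.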

How the results depend on the processing

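Against 153 probes for CR HS minus LW HS, the raw scans gave 142, scaling to the 75th percentile 129, normexp 140, a filter on dim probes 153, a variance trend 158 and slide as a block 111. Array weights gave 726, an additive model of breed and climate 421, the erythroid level as a covariate 343, the 12 arrays alone 80 and gene means 32. Single pigs left out gave 51 to 236. All 153 differences kept their sign in each of these probe-level fits, with 66 also past the threshold in the 12 arrays alone and 94 with slide as a block. Of 36 named probes, 12 missed the threshold with slide as a block, and 15 in the 12 arrays alone, those of clone AK237324, CYCS, PTGR1, CCL8, APP, SLC46A2, PRDX1, LEF1, ALDH5A1, PRKRIR, ESD, ACTA1, FSCN1, A_72_P010271 and LOC100524282 (adjusted p 0.0567 to 0.156 by limma). TN and the test of HS against TN were run under the scans, percentile, normexp, filter, weights, trend and slide alternatives only. There the 33 TN probes became 110 with array weights and 26 to 33 in the others, and the test of HS against TN gave 0. LAMP2 and ACTA1 turned to 0.13 and 0.039 as gene means, since their other probes lay on the other side or near 0, and ALDH5A1 to 0.078 within slide 1. The cause of the other changes was not tested. Of the named probes, 14 passed the threshold whichever pig was left out, and each of the other 22 lost it without 2 to 11 of the 12 pigs. No paired analysis was possible because the replicate numbers were given in the order of the sample records. For 8 of the 153 probes no LW HS array and for 3 no CR HS array was well above background, so these are bounds only.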
